A study of Homo sapiens with 4 samples.

Results

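The clade B serpins examined here are SERPINB1 to SERPINB8, taken by symbol from the count tables of single MCF10A cells: 8 genes of the 19568 that had a row in any plate. All 8 had a row in 3 plates, while SERPINB3 had none in high-resolution replicate 2, which leaves 7 members there. MCF10A is an untransformed human breast epithelial line, used here with a GFP-tagged histone H2B. In every group 10000 cells were seeded as a circular patch on fibronectin and grown for 6 days with EGF, insulin, hydrocortisone and cholera toxin, so the experiments differed in the phototagging and not in a drug or genotype. Light-activated dyes marked 3 regions of each patch before sorting. In the low-resolution experiment these were rings of 1000 to 1500 μm, and in the high-resolution experiment an outer rim of 250 μm, a second band of that width and the remaining centre. Each experiment had 2 biological replicates with 1 sorted plate each. SORT-seq reads the 3′ ends of transcripts and counts unique molecular identifiers (UMIs). The region of each well is not analysed here, so every value is for the sorted cells of a plate as a whole, and the share of each region on a plate follows from the sort.

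Serpins are protease inhibitors that present an exposed loop as bait, and a protease that cuts the loop is trapped and distorted. Clade B, the ovalbumin-like serpins, mostly lacks a classical signal peptide, and its members act largely inside the cell, against lysosomal, granule and apoptotic proteases or against proteases met outside it after release. In stratified and mammary epithelium the family is known for SERPINB5 (maspin), a marker of the epithelial and myoepithelial state that does not act as a usual inhibitor, and for SERPINB2 (plasminogen activator inhibitor 2), which inhibits urokinase.

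In all 1146 cells, 562 of the low-resolution and 584 of the high-resolution plates, passed the limits of 2000 to 9000 features and under 40% mitochondrial counts, with a median of 30520 to 41248 counts per cell. Levels are given as counts per 10000 counts of a cell. One UMI is counted per captured 3′ end whatever the length of the transcript, so levels of different members can be set side by side. The basal keratin KRT5 was found in 99.6% to 100% of cells of a plate, and the leukocyte marker PTPRC in 0.344% to 1.71%. Enough counts for the comparison of the experiments below were also found for leukocyte CD68, endothelial PECAM1 and fibroblast COL1A1. Of 5 listed basal and 5 luminal markers, 4 each also had enough. KRT5 and PTPRC alone thus do not settle the identity of the cells. All 384 well barcodes recur on every plate by design, so a shared barcode does not mark a shared cell.

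In GENCODE v29, on the GRCh38 build, 6 members lie on chromosome 18 and 2 on chromosome 6. The chromosome 18 genes share a stretch of 543019 bases with 4 other clade B genes, in the order SERPINB5 (chr18:63476761-63505085, plus strand), SERPINB4 (chr18:63637259-63644298, minus strand), SERPINB3 (chr18:63655197-63661963, minus strand), SERPINB7 (chr18:63752935-63805376, plus strand), SERPINB2 (chr18:63871692-63903890, plus strand) and SERPINB8 (chr18:63969925-64019779, plus strand). SERPINB1 (chr6:2832332-2842006) and SERPINB6 (chr6:2948159-2972165) are both on the minus strand of chromosome 6, with SERPINB9 between them. SERPINB2 overlaps SERPINB10 over 6717 bases on the same strand, and SERPINB3 lies within SERPINB11 on the opposite strand.

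The stretches just before the start of transcription printed here differ between the members, except those of SERPINB3 and SERPINB4, which are nearly the same. How alike such stretches are between other genes was not measured. The following bases, from 40 to 11 before the start, are from RefSeq (GRCh38.p14), written in the direction of transcription, with capitals for a motif found on either strand. The first motif searched was TATAAA, the sequence of the TATA box. The second was an E-box that ZEB and SNAI factors are known to bind, CAGGTG. The last was the AP-1 motif, TGANTCA. The stretches of the 3 SERPINB7 starts are not printed. The second of them holds the AP-1 motif and the third holds TATAAA on the opposite strand.
SERPINB2, chr18:63887665-63887694, plus strand: ggcaaagctgTATAAAaccagtcattacca
SERPINB5, chr18:63476918-63476947, plus strand: gtggcggtgctgccCAGGTGagccaccgct
SERPINB8, chr18:63970041-63970070, plus strand: atcgaacggttcTGAGTCAtctgccggaag
SERPINB1, chr6:2841874-2841903, minus strand: ttccgcctgctataagagcagcggccctcg
SERPINB6, first of 4 starts, chr6:2971578-2971607, minus strand: cccgcgagtatttgaggtccggggcggctc
SERPINB3, chr18:63661904-63661933, minus strand: gaggagaggcataaattcaggatctcaccc
SERPINB4, chr18:63644267-63644296, minus strand: gaggagaggcataaatttaggatctcaccc

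In the full 250 bases before the start, SERPINB2 holds 0 CpG dinucleotides and 37.2% G and C, while the first SERPINB6 window holds 26 CpG and 68.8%, and SERPINB1 holds 21 CpG and 63.6%. The median of all 35116 RefSeq windows is 11 CpG and 58% G and C, which lies below these windows of the chromosome 6 pair and above that of SERPINB2. The fourth SERPINB6 window holds 3 CpG and 47.6%, so the starts of that gene differ among themselves, and 2 of the 3 SERPINB7 windows hold 0 CpG. Of all windows 10.7% hold TATAAA, 6.57% the AP-1 motif and 17.5% the E-box, at any position and on either strand. TATAAA is found in the windows of SERPINB2 and SERPINB8 and in the third window of SERPINB7. In SERPINB2 it begins at position −30 from the start. The farthest match begins at −142 in SERPINB8, whose printed stretch holds none, and at −127 in the third SERPINB7 window. SERPINB5 is the member whose window holds the E-box. The AP-1 motif is found in the windows of SERPINB2, SERPINB5 and SERPINB8 and in 2 of the 3 windows of SERPINB7. These matches describe letters and do not show that a factor binds. SERPINB3 and SERPINB4 are 98.8% identical over these 250 bases, and the last 500 bases of their transcripts are 96.4% identical, against 43.2% to 56.4% for the 27 other member pairs, so their 3′ reads can be hard to tell apart and their counts are uncertain.

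The members fell into a steep order of abundance that was nearly the same in every plate. SERPINB5 had a UMI in 99.3% of cells of both low-resolution plates and in 100% of cells of both high-resolution plates. SERPINB6, an inhibitor of cathepsin G and other intracellular proteases, was found in 89.7% and 90.8% of low-resolution cells and in 92.8% and 95.6% of high-resolution cells (replicates 1 and 2). SERPINB1, an inhibitor of neutrophil proteases and of inflammatory caspase activity, was found in 79%, 77.5%, 78% and 83.6% of cells of low-resolution replicates 1 and 2 and high-resolution replicates 1 and 2. These genes were thus detected in most cells of each plate.

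SERPINB8, known as a furin inhibitor, followed with 68.7%, 66.4%, 63.2% and 73.7% in the same order of plates. SERPINB2 was found in 48.1%, 53.5%, 48.1% and 51.5%. SERPINB7 (megsin), which is active in the upper layers of skin and whose loss causes a keratoderma, was found in 11.7% and 14.8% of low-resolution cells and in 24.1% and 27.3% of high-resolution cells. In this order the exact binomial (Clopper-Pearson) 95% intervals of neighbours were apart in every plate, except SERPINB1 and SERPINB8 in low-resolution replicate 1, at 73.9% to 83.6% and 63.1% to 74%. SERPINB7 stood below the first 5 members in all 4 plates, and its 2 high-resolution shares lay above its 2 low-resolution shares.

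The squamous cell carcinoma antigens SERPINB3 and SERPINB4, cysteine and serine protease inhibitors of squamous epithelium, were close to absent. SERPINB3 had a UMI in 3, 10, 3 and 0 cells of the 4 plates, and the 0 in high-resolution replicate 2 allows a share of up to 1.02% by the floor of 3 counts, or 1.25% by the exact binomial 95% interval. SERPINB4 had a UMI in 2, 1, 2 and 1 cells. The other clade B genes were as rare: SERPINB11 was at 0 counts in every plate, and SERPINB9, SERPINB10, SERPINB12 and SERPINB13 were each found in at most 3.41% of cells of a plate. Intervals and floors cover counting error only.

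Taking 20% of cells in each of the 4 plates as the limit for wide detection, 5 of 8 members passed, as did 8027 of all 19568 genes. With each cell thinned to 10000 UMIs, which leaves out 2 to 7 shallower cells of a plate, the same number was reached, but the shares fell: SERPINB6 to between 61.3% and 72.5%, SERPINB1 to between 40.8% and 51.2%, SERPINB2 to between 32.1% and 34%, and SERPINB8 to between 28.9% and 36.6%. SERPINB5 stayed at 95.8% to 99.3%. SERPINB7 was then found in 4.53% and 4.48% of low-resolution and 7.75% and 7.56% of high-resolution cells. The high-resolution shares were again higher, but the exact binomial intervals of the groups overlapped. They were 2.43% to 7.62% and 2.33% to 7.69% against 4.92% to 11.5% and 4.80% to 11.2%. The part of depth in the difference in share was not tested.

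**Figure D1:**
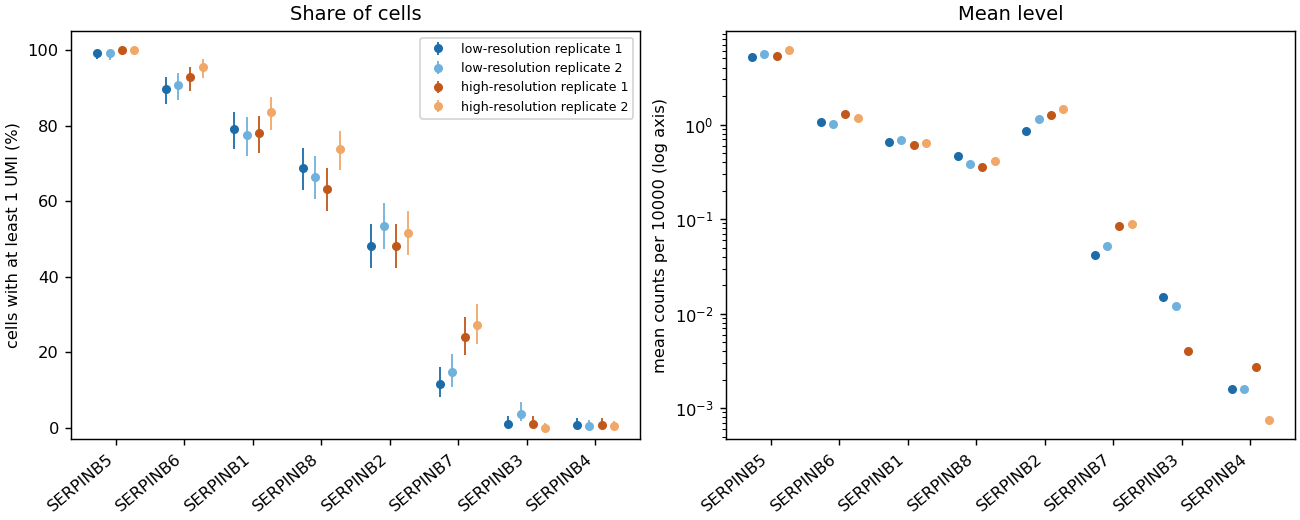
Share of cells with at least 1 UMI (left, percent, bars are 95% Clopper-Pearson intervals) and mean counts per 10000 (right, log axis) of the 8 members in each of the 4 plates (points). SERPINB5 stands highest in both panels, SERPINB2 has a higher mean than SERPINB1 and SERPINB8 although fewer cells hold it, and SERPINB3 at 0 in high-resolution replicate 2 is not drawn on the log axis.

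Mean levels gave another order than shares. SERPINB5 reached 5.24, 5.53, 5.32 and 6.18 counts per 10000 in low-resolution replicates 1 and 2 and high-resolution replicates 1 and 2, and it made up 61.3% to 63.9% of all counts of the 8 members. SERPINB6 had means of 1.05, 1.02, 1.29 and 1.18 in the same plates. SERPINB2 had 0.853, 1.14, 1.25 and 1.48, which overlaps the range of SERPINB6 although SERPINB2 was seen in far fewer cells.

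SERPINB1 had 0.652, 0.680, 0.608 and 0.646 counts per 10000, and SERPINB8 had 0.468, 0.382, 0.358 and 0.415, so the ranges of the 2 genes did not overlap. SERPINB7 had 0.0412, 0.0513, 0.0848 and 0.0888. A cell held a median of 4 of the 8 members at full depth and of 3 after thinning, in each plate. Between 68.4% and 79.2% of the cells of a plate held 4 or more members, and at full depth 0 cells held none.

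SERPINB2 differed from the other widely detected members in how unevenly its counts were spread over cells. The 10% of cells with the most SERPINB2 held 71.3%, 65.5%, 67.6% and 76.3% of its counts in the 4 plates, against 27% to 30.8% for SERPINB5 and 25.7% to 28.4% for SERPINB6. The median cell of both first replicates had 0 counts of SERPINB2.

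One well of high-resolution replicate 2 held 453 counts of SERPINB2, or 0.677% of the 66892 counts of that cell and 20.5% of the SERPINB2 counts of the plate. It had 7375 features and so passed the filter. Without it the plate mean is 1.25 in place of 1.48 counts per 10000. The highest counts in a cell of the other plates were 67.5, 56.4 and 81.8. SERPINB10, whose gene overlaps SERPINB2 on the same strand, had a UMI in 19 cells, of which 15 also held SERPINB2. Counts from this overlap could be split either way by the counting.

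**Figure D2:**
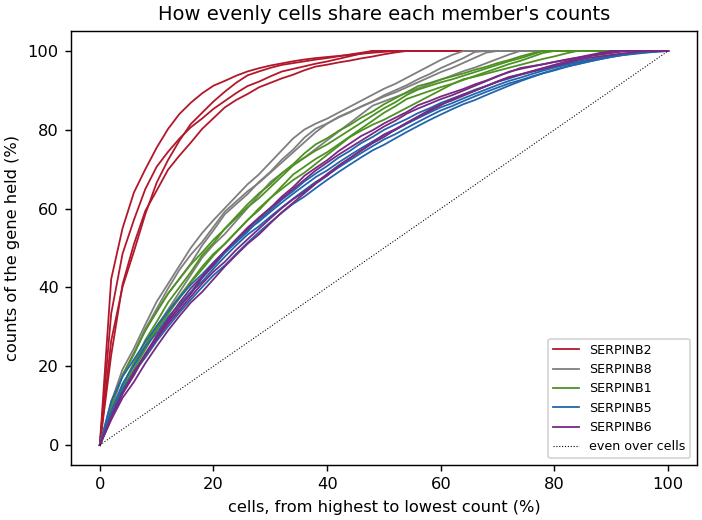
Cumulative share of the counts of 5 members (y, percent) over the cells of a plate ordered from the highest to the lowest count (x, percent), with 1 line per plate. The SERPINB2 lines rise first: between 4% and 8% of cells hold 50% of its counts, against 24% to 26% of cells for SERPINB5.

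Between the experiments, SERPINB2 and SERPINB7 were higher in the high-resolution plates and SERPINB3 was lower, with the plate as the replicate. The comparison asks whether the family differs between patches tagged in wide rings and patches tagged at the edge. The summed counts of each plate were tested by edgeR's quasi-likelihood test with Benjamini-Hochberg adjustment over the 12429 genes tested. Of the 7 members tested (SERPINB4 was too low), 2 rose, against a background of 6.25% of genes, and 1 fell, against 6.19%. In the same fit the mesenchymal genes SNAI2 (1.36), VIM (0.94) and FN1 (0.77) were higher in the high-resolution plates on the log2 scale. The epithelial gene CDH1 (−0.68) was lower, and EPCAM and ZEB1 were not called. Differences in tagging, in the cells sorted and in these genes cannot be told apart between the experiments.

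SERPINB2 had 0.909 and 1.05 counts per 10000 in the sums of low-resolution replicates 1 and 2, and 1.16 and 1.64 in those of high-resolution replicates 1 and 2. The groups did not overlap, but 2 plates against 2 make this a weak mark, and the share of all genes that did so was not counted. Its difference of 0.54 on the log2 scale (SE 0.16) had an adjusted p of 0.0405 by edgeR. It was 0.41 with an adjusted p of 0.0653 by edgeR when the cell with the most counts of a plate was left out, and 0.29 with an adjusted p of 0.335 without high-resolution replicate 2, so the call rests on that plate. With no limit on mitochondrial counts it was 0.39 with an adjusted p of 0.0808 by edgeR. Without low-resolution replicate 1 it was 0.41 with an adjusted p of 0.191 by edgeR. The file names give that plate another flow cell than the other 3.

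SERPINB7 had 0.0586 and 0.0565 counts per 10000 in the low-resolution sums and 0.0928 and 0.0938 in the high-resolution sums. Its groups did not overlap either, and the difference was 0.73 (SE 0.21, adjusted p = 0.0405 by edgeR). Leaving out any plate moved it only between 0.72 and 0.75, but the adjusted p then ranged from 0.0722 to 0.141, and DESeq2 on all plates gave 0.131. The level of SERPINB7 rose with the total counts of a cell in every plate, with a Spearman rho of 0.317, 0.230, 0.20 and 0.227, and the high-resolution plates were the deeper ones. At 10000 UMIs per cell the difference was 0.88 (SE 0.35, adjusted p = 0.122 by edgeR).

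SERPINB3 was called lower at −3.39 (SE 0.79, adjusted p = 0.0165 by edgeR) from very few molecules: 16, 12, 3 and 0 counts in the 4 plates, with 12 of the 16 in 1 cell. The low-resolution cells held 28 counts against 3, a ratio of 11.7 per count sequenced with an exact 95% interval of 3.6 to 59.9 that covers counting error only. In cells, this was 13 of 562 against 3 of 584. Without the cell with the most counts in each plate SERPINB3 was too low to test, and without low-resolution replicate 1 or high-resolution replicate 2 it was −3.19 and −2.31 with an adjusted p of 0.0921 and 0.166 by edgeR. Without high-resolution replicate 1 it was −6.96 with an adjusted p of 0.00622 by edgeR, a value fitted against a plate at 0 counts that is no bound on the size. DESeq2 gave no adjusted p for it.

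The remaining members were not called. SERPINB6 differed by 0.30 (95% interval 0.06 to 0.55, adjusted p = 0.100 by edgeR), with plate sums of 1.02 and 1.03 against 1.3 and 1.17. SERPINB5 differed by 0.13 (−0.11 to 0.37), SERPINB1 by −0.07 (−0.33 to 0.18) and SERPINB8 by −0.16 (−0.45 to 0.14). In the same fit the urokinase gene PLAU, the main target of SERPINB2, was 1.61 higher (adjusted p = 6.7e-04 by edgeR) and PLAT, the tissue-type activator, was 1.76 higher (adjusted p = 0.00577 by edgeR) in the high-resolution plates.

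Along the epithelial to mesenchymal transition (EMT) the family split, with members moving in both directions. Each cell was given an EMT score, the enrichment score (GSVA) of listed mesenchymal genes minus that of listed epithelial genes, and no member is on either list. The cells of a plate were ranked by score and divided into 3 groups of equal size. Counts of the lowest group (low-EMT, 90 or 97 cells) and of the highest group (high-EMT, as many cells) were summed and compared by edgeR with the plate as a block. Of the 6 members tested, SERPINB6 and SERPINB7 rose in the high-EMT cells, against a background of 20.3% of the 10695 genes tested. SERPINB5, SERPINB1 and SERPINB8 fell, against 20.9%.

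SERPINB5 had 6.25, 6.78, 5.96 and 7.43 counts per 10000 in the low-EMT cells of low-resolution replicates 1 and 2 and high-resolution replicates 1 and 2. In the high-EMT cells it had 4.20, 4.07, 4.56 and 5.70. It was thus lower in the high-EMT cells of every plate, and the sums did not overlap. It fell by 0.60 on the log2 scale (SE 0.08, adjusted p = 1.02e-04 by edgeR), a level 1.52-fold lower in the high-EMT cells. Even so, 97.8% to 100% of the high-EMT cells of a plate still held a UMI of SERPINB5.

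SERPINB1 had 0.647, 0.733, 0.633 and 0.721 in the low-EMT and 0.565, 0.612, 0.487 and 0.515 in the high-EMT cells. These did not overlap either, and the fall was smaller, 0.42 (SE 0.09, adjusted p = 0.0029 by edgeR). SERPINB8 had 0.502, 0.427, 0.390 and 0.425 against 0.405, 0.328, 0.301 and 0.393. It was lower in the high-EMT cells in 4 of 4 plates while the ranges overlapped, with a fall of 0.37 (SE 0.10, adjusted p = 0.0119 by edgeR). At equal depth the SERPINB8 fall was 0.29 with an adjusted p of 0.268, and DESeq2 gave a fall of 0.36 with an adjusted p of 0.107. Without low-resolution or high-resolution replicate 1 the fall was 0.35 or 0.34 with an adjusted p of 0.0524 or 0.0502 by edgeR, so the size changed little while the call was lost.

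SERPINB6 moved the other way. Its low-EMT sums were 0.860, 0.906, 1.10 and 0.996 counts per 10000 and its high-EMT sums 1.20, 1.27, 1.52 and 1.43, without overlap, a rise of 0.41 (SE 0.08, adjusted p = 0.0012 by edgeR). SERPINB7 had 0.0300, 0.0324, 0.0481 and 0.0819 against 0.100, 0.0718, 0.0969 and 0.103. It was higher in the high-EMT cells of every plate, with overlapping ranges, and rose by 0.86 (SE 0.25, adjusted p = 0.0159 by edgeR). Without low-resolution replicate 1, low-resolution replicate 2 or high-resolution replicate 1 its adjusted p was 0.0638, 0.0507 or 0.0543 by edgeR, and thinned to 10000 UMIs it was too low to test.

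The sums of SERPINB1, SERPINB5 and SERPINB6 did not overlap between the EMT groups, 3 of 6 members tested, and 30.4% of all genes tested did the same. The shift of the members was small next to that of the genes that define the score, which were chosen for it: in the same fit VIM, a mesenchymal filament, differed by 5.43 and CDH1, the epithelial cadherin, by −4.54. The groups also differed in quality measures. The median mitochondrial share was 31.7% to 33.8% in the low-EMT and 25.9% to 29% in the high-EMT cells, and the median counts per cell were 33368 and 36917 against 27489 and 30194 in the low-resolution plates. In the high-resolution plates the median counts were 39219 and 37975 in the low-EMT against 39117 and 41960 in the high-EMT cells. The part of these measures in the differences was not tested.

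**Figure D3:**
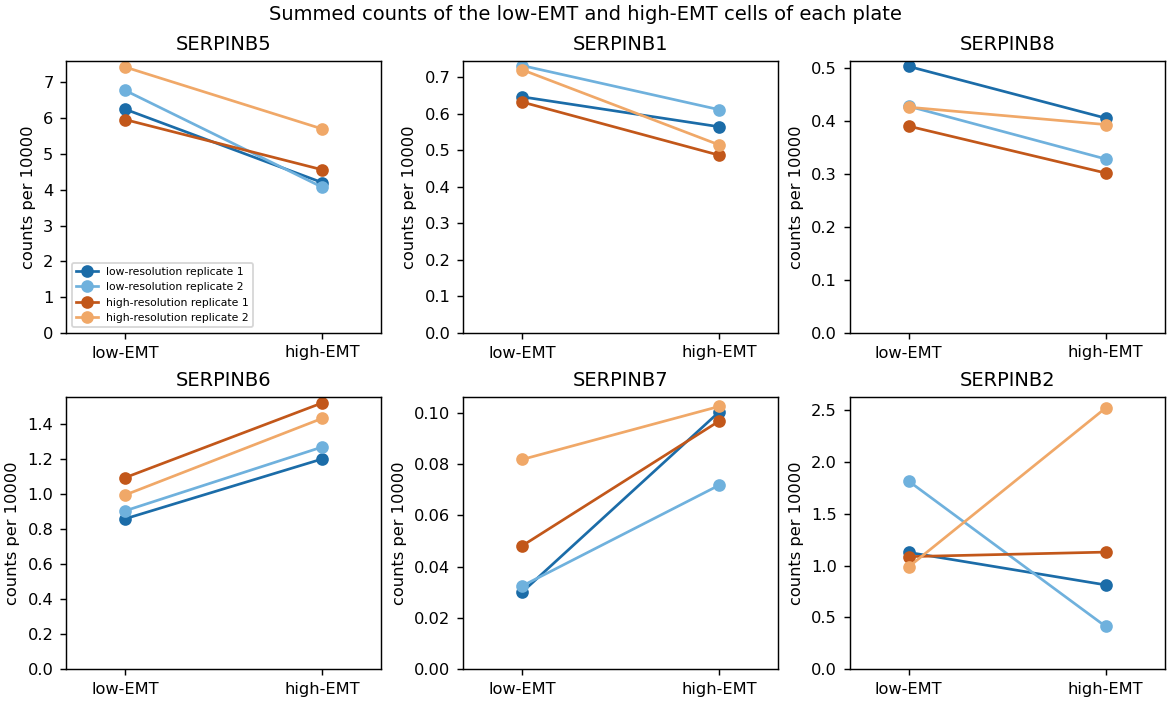
Counts per 10000 (y) of 6 members in the summed low-EMT and high-EMT cells (x) of each plate (lines). SERPINB5, SERPINB1 and SERPINB8 are lower and SERPINB6 and SERPINB7 higher in the high-EMT cells of all 4 plates, while the 4 SERPINB2 lines run in different directions.

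SERPINB2 did not follow this pattern, and its difference along the score was not the same in the experiments. Its sums were 1.13 and 1.82 counts per 10000 in the low-EMT cells of low-resolution replicates 1 and 2 and 0.813 and 0.412 in their high-EMT cells. In high-resolution replicates 1 and 2 they were 1.09 and 0.987 in the low-EMT and 1.13 and 2.52 in the high-EMT cells. It was therefore lower in the high-EMT cells of both low-resolution plates, and higher in high-resolution replicate 2 with little difference in replicate 1. Over all plates the difference was −0.30 (SE 0.39, adjusted p = 0.571 by edgeR). Single plates decided it: without high-resolution replicate 2 it was −0.88 with an adjusted p of 0.0253 by edgeR, and without low-resolution replicate 2 it was 0.26 with an adjusted p of 0.505. With no filter on low counts it was −0.31 with an adjusted p of 0.0477 by edgeR.

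The interaction of EMT group and experiment was 2.01 (SE 0.38, adjusted p = 0.0069 by edgeR). SERPINB2 was the 1 member of 6 called, against a background of 3.09% of genes. It stayed at 1.61 with an adjusted p of 0.0078 by edgeR without the cell with the most counts, and the call was lost without low-resolution replicate 2, at 1.25 with an adjusted p of 0.148. It was 2.90 with an adjusted p of 0.0126 by edgeR without low-resolution replicate 1, and 1.31 with an adjusted p of 0.00296 without high-resolution replicate 2. DESeq2 gave the same size, 2.02, with an adjusted p of 0.494. The interaction of SERPINB5 was 0.28 (95% interval 0.07 to 0.49, adjusted p = 0.157 by edgeR), and that of SERPINB6 was 0.02 (−0.25 to 0.30). The EMT groups were cut within each plate, on a score fitted per experiment, so their EMT levels can differ between experiments. Mean VIM in high-EMT cells was 1.96 and 1.88 counts per 10000 in the low-resolution and 3.28 and 4.07 in the high-resolution plates. Mean SNAI2 was 1.46 and 1.68 against 3.45 and 3.73, and mean FN1 was 14.7 and 12.2 against 17.9 and 15.8. Mean CDH1 was 0.0724 and 0.0667 against 0.0230 and 0.0269. Mean ZEB1 overlapped, at 0.171 and 0.116 against 0.168 and 0.138, as did mean EPCAM, at 0.0579 and 0.123 against 0.0564 and 0.0618. The part of this in the interaction was not tested.

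The share of cells holding SERPINB2 was lower in the high-EMT cells of all plates, while its median level in those cells differed in direction between the experiments. It was 38.1% against 61.9% and 33.3% against 74.4% in the low-resolution plates, and 43.3% against 61.9% and 48.5% against 54.6% in the high-resolution plates. This difference in share was not tested. After thinning the share was again lower in all 4 plates, 23.2%, 19.1%, 27.7% and 32% in the high-EMT against 40%, 55.1%, 36.2% and 39.2% in the low-EMT cells.

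Among cells that held SERPINB2, the median level in the low-EMT and high-EMT cells was 0.969 and 0.773 counts per 10000 in low-resolution replicate 1 and 1.43 and 0.546 in replicate 2. In the high-resolution plates it was 0.795 and 1.47 in replicate 1, and 0.858 and 2.01 in replicate 2. By the median, the cells that held SERPINB2 thus had more of it in the high-EMT cells of the high-resolution plates and less in those of the low-resolution plates. The mean over the same cells was 1.92 and 1.96 in low-resolution replicate 1, so there the fall was in the median and not in the mean. In high-resolution replicate 2, 13 of 97 high-EMT and 5 of 97 low-EMT cells were above 5 counts per 10000.

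**Figure D4:**
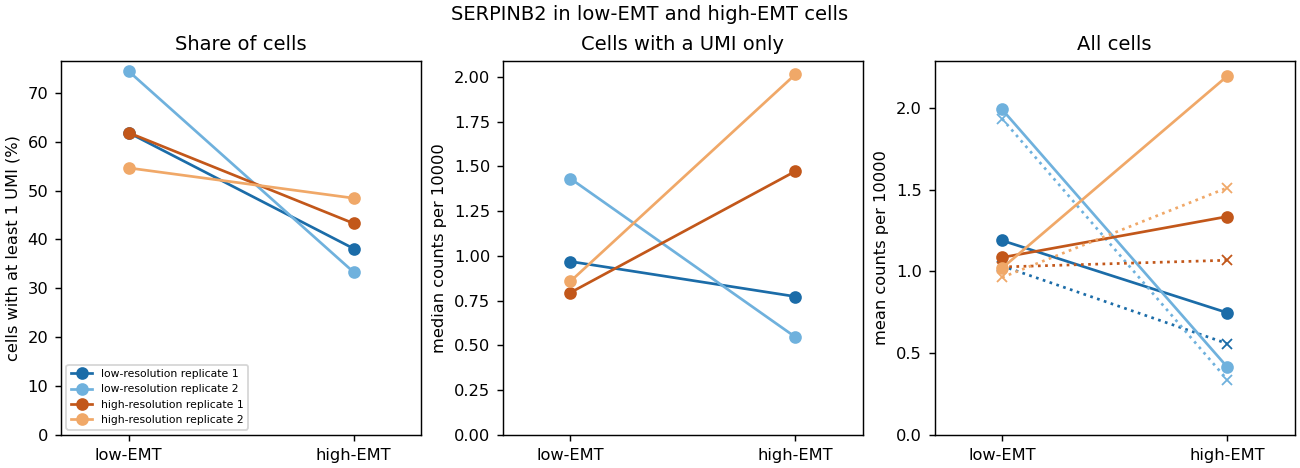
SERPINB2 in the low-EMT and high-EMT cells of each plate (lines): share of cells with at least 1 UMI (left, percent), median counts per 10000 of the cells with a UMI (middle) and mean counts per 10000 of all cells (right, with dotted lines and crosses for the mean without the cell with the most counts of that group). The share is lower in the high-EMT cells of all 4 plates, whereas the median of positive cells is higher there in the 2 high-resolution plates and lower in the 2 low-resolution plates.

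Cell by cell, the relation of the members to the EMT score was weak. Spearman correlations across the cells of a plate are given as descriptions, since the cells share a plate and depth and mitochondrial share vary along the score. SERPINB5 had a rho of −0.295, −0.419, −0.179 and −0.270 with the score in low-resolution replicates 1 and 2 and high-resolution replicates 1 and 2. SERPINB6 had 0.226, 0.198, 0.249 and 0.265. SERPINB2 had −0.203, −0.411, −0.137 and −0.043. The sign of each gene was the same in all plates, with the low-resolution replicate 2 values of SERPINB5 and SERPINB2 the farthest from 0.

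Of the 5 widely detected members, 0 had a rho of at least 0.3 in size with 1 sign in every plate, against 4.74% of the 7954 genes compared. Each of the 5 kept 1 sign in the 4 plates, and 58.7% of genes did. SERPINB1 had a mean rho of −0.13 and SERPINB8 of −0.09, and SERPINB8 turned positive in low-resolution replicate 2 at equal depth (0.106). SERPINB7, below the limit on detection, had 0.0923, 0.109, 0.147 and 0.0437.

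With single EMT markers, SERPINB5 followed CDH1 most closely, with a rho of 0.301, 0.397, 0.187 and 0.302, and EPCAM, an epithelial adhesion protein, with 0.195 to 0.292. Its rho with FN1 (fibronectin) was −0.331 to −0.105, and with SNAI2 it was −0.182 to 0.113 with no common sign. SERPINB6 ran opposite, at −0.267 to −0.128 with CDH1 and 0.109 to 0.265 with VIM. SERPINB7 had its highest marker correlation with SNAI2, 0.154 to 0.227, which fell to a mean of 0.0787 at equal depth.

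Other properties of a cell were about as strongly related to some members. SERPINB1 fell with the S phase score in every plate, with a rho of −0.213, −0.129, −0.236 and −0.242. SERPINB2 fell with the G2/M score, with −0.168, −0.324, −0.218 and −0.128. SERPINB6 rose with the G2/M score (0.178 to 0.231) and was lower in cells with more mitochondrial counts (−0.242 to −0.108). With the S and G2/M scores regressed out of level and score, SERPINB5 kept a mean rho of −0.27 with the EMT score and SERPINB6 of 0.21. SERPINB7 went from 0.10 to 0.03. Most cells had no UMI of SERPINB7, and after the regression such cells are ranked by their cell cycle scores. Its value therefore cannot show what the cell cycle contributes.

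Correlations between members were low. Of the 10 pairs of the 5 widely detected members, 0 had a rho of at least 0.2 in all 4 plates, against 0.502% of all pairs of widely detected genes, so a count of 0 among so few pairs does not set the family apart. Over the 15 pairs of the 6 members other than SERPINB3 and SERPINB4, the mean rho over plates had a median of 0.03 and ran from −0.14 (SERPINB5 with SERPINB6) to 0.14 (SERPINB2 with SERPINB5). SERPINB5 with SERPINB6 was negative in every plate, at −0.136, −0.191, −0.107 and −0.133, and SERPINB2 with SERPINB5 was positive in every plate, at 0.151, 0.269, 0.0894 and 0.0518. At 10000 UMIs per cell SERPINB5 with SERPINB6 had a mean of −0.0542 and was again negative in 4 of 4 plates.

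The pairs are given by chromosome as a description, and no difference between them was tested. The 6 pairs on chromosome 18 had a median mean rho of 0.07, the 8 pairs on different chromosomes one of −0.0003, and SERPINB1 with SERPINB6, the chromosome 6 pair, one of −0.03. At 10000 UMIs per cell the chromosome 18 median was 0.03 and that of the pairs on different chromosomes −0.02. With the EMT score regressed out these medians were 0.05 and −0.0061, and the pair of SERPINB2 and SERPINB5 and all others lay between −0.07 and 0.10 in mean rho. In that setting cells without a UMI of a gene are ranked by their EMT score, which weighs most on the pairs with SERPINB7.

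**Figure D5:**
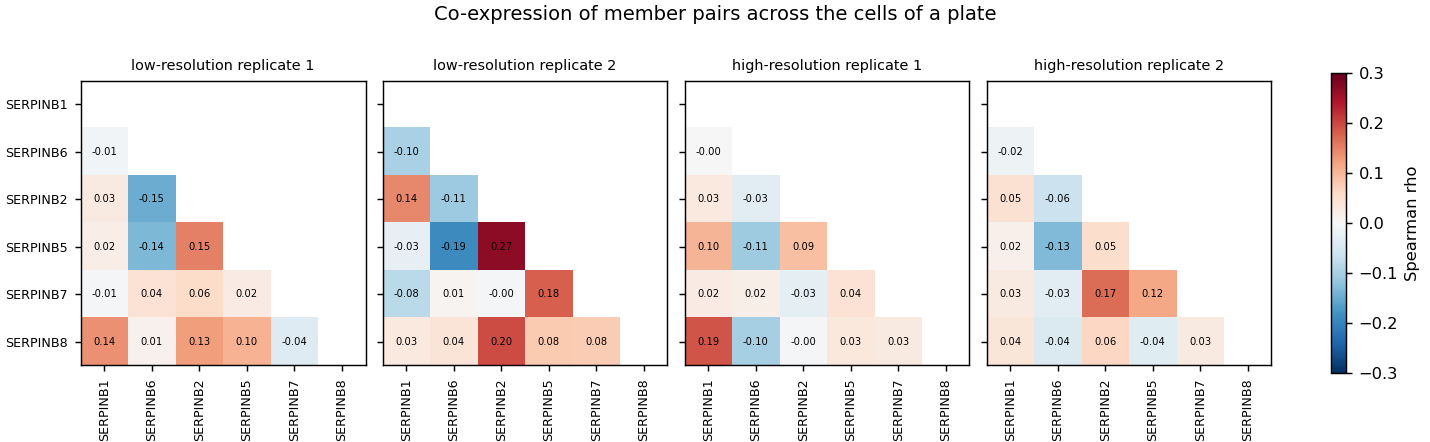
Spearman rho across cells (colour and number) for the 15 pairs of 6 members in each of the 4 plates, ordered by chromosome. Values run from −0.19 to 0.27, and SERPINB5 with SERPINB6 is below 0 in all 4 plates.

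Each widely detected member was also compared with 8026 other widely detected genes, by the mean rho over the 4 plates, and the 3 most alike are named. For SERPINB5 these were JUP, the desmosomal and junctional plakoglobin (0.35), RAB25, an epithelial GTPase (0.33), and DSG3, a desmosomal cadherin (0.32). For SERPINB2 they were PSCA (0.29), CD24, a surface glycoprotein of epithelial cells (0.27), and SLPI, a secreted inhibitor of neutrophil elastase (0.25). Their values at equal depth were lower, 0.20 to 0.22 for the SERPINB5 and 0.20 to 0.24 for the SERPINB2 neighbours.

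SERPINB6 was most like MT2A, a metallothionein (0.29), YWHAQ, a 14-3-3 protein (0.27), and EMP3 (0.27). SERPINB1 was most like AHNAK2 (0.24), TPD52L1 (0.23) and ACSL1, which activates fatty acids (0.23). SERPINB8 was most like KLF5, an epithelial transcription factor (0.16), IL1RN, the interleukin 1 receptor antagonist (0.16), and CSTA, a cysteine protease inhibitor of the cornified envelope (0.15). These last values were the weakest of the 5 members. At equal depth the neighbours had 0.12 to 0.18 for SERPINB6, 0.12 to 0.14 for SERPINB1 and 0.06 to 0.10 for SERPINB8.

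Correlations of the serpins with the proteases listed for them were low in these pairs. SERPINB2 had a mean rho of −0.04 with PLAU and of −0.06 with PLAT. SERPINB8 had 0.05 with FURIN, and SERPINB1 had 0.08 with CASP4, an inflammatory caspase. SERPINB3, over the plates where it was found, had −0.0453 and SERPINB4 had 0.0073 with CTSL, both from very few cells. CTSG, the target of SERPINB6, was not detected in any plate. Of 14 listed proteases 8 could be tested between the EMT groups. PLAT (3.24), PLAU (1.11), CTSL (1.02) and FURIN (0.28) rose in the high-EMT cells and CTSS (−1.57) and CASP4 (−0.50) fell, all with adjusted p under the threshold of 0.05 by edgeR. These 4 and 2 of 8 stand beside the 20.3% of all genes that rose and the 20.9% that fell.

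Listed squamous genes and serpins of other clades also differed along the score. Of 18 squamous genes, which include cornified envelope and suprabasal keratin genes and are not in the score, 15 were tested, 14 fell and 0 rose in the high-EMT cells, with a median log2 difference of −2.95 against −0.0013 for all genes. Examples are SPRR1B (−4.56), IVL (−4.54) and DSG3 (−2.95). Among listed serpins of other clades, SERPINE2 (4.83), SERPINA1 (1.97) and the collagen chaperone SERPINH1 (0.55) rose, while SERPINA3 (−2.59) and SERPINA5 (−1.06) fell.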

How the data were processed

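MCF10A cells of 4 plates (2 per experiment) were analysed. The deposited tables hold expected counts: the authors' provider counted distinct UMIs per gene and well, with a correction for repeated draws of one UMI and no adjustment for sequencing depth. The submitters' processing notes name STAR 2.7.3a, Seurat 4 and hg38, and the annotation is not given in the sources used here. Wells outside 2000 to 9000 features, or at 40% mitochondrial counts and above, were removed, and doublets were not called beyond the upper limit. Levels are counts per 10000. The EMT score was a GSVA score per experiment. Counts were summed per plate or per plate and EMT group, rounded to whole numbers and tested by edgeR 4.0.16 (quasi-likelihood, TMM, filterByExpr, Benjamini-Hochberg, threshold 0.05) in R 4.3.3, with DESeq2 1.42.0 as an alternative. Scripts were tested on simulated data. Other values came from Python 3.11.15, numpy 2.4.6 and scipy 1.17.1, and cell cycle lists from Seurat 5.3.0. All members were named, and for each widely detected member the 3 genes with the highest mean rho. The members and gene lists were chosen with earlier results of these data known. The design has 2 plates per experiment, so p-values rest on few replicates. One listed gene outside the family is not reported here.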

Additional observations from a re-analysis of the deposited data

Results flagged for a closer look

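The difference of SERPINB2 between high-EMT and low-EMT cells itself differed between the experiments, by 2.01 on the log2 scale (SE 0.38, adjusted p = 0.00694 by edgeR's quasi-likelihood test with Benjamini-Hochberg adjustment). It was 1.25 with an adjusted p of 0.148 by edgeR without low-resolution replicate 2, and DESeq2 gave an adjusted p of 0.494. Over the 13 alternatives the adjusted p ranged from 1.68e-35, by edgeR with no filter on low counts, to 0.494 by DESeq2. The SE was 0.153 in that edgeR fit. With 2 plates per experiment so small a p is no measure of the spread between plates. The EMT groups were cut within each plate, so their EMT levels can differ between the experiments.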

How the results depend on the processing

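The count of genes called between experiments was 1546, and 1014 at 10000 UMIs per cell, 1069 with DESeq2 and 987 to 1323 with 1 plate left out. Between the EMT groups it was 4405, and 2624 at 10000 UMIs, 3084 with DESeq2, 2965 without the plate in the model and 3678 to 3810 with 1 plate left out. The interaction called 331 genes, and 62 with DESeq2, 538 without a filter on low counts, 111 at 10000 UMIs, 655 with the cells cut at the median score and 89 to 283 with 1 plate left out. Fewer genes were tested at 10000 UMIs and fewer plates entered when 1 was left out, and otherwise the cause was not tested. With the replicate block, 2008 genes were called between the experiments and SERPINB2 (0.53), SERPINB7 (0.73) and SERPINB3 (−3.38) stayed called. Replicates share only a number across the experiments, and deviations of same-numbered plates had a correlation of −0.03 over 8964 genes.

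Signs of the members' log2 differences turned only where the main value was smaller in size than its SE. For SERPINB2 between EMT groups the sign also rested on single plates. SERPINB1 between experiments ran from −0.153 to 0.0161 with 1 plate left out, and SERPINB2 between EMT groups from −0.88 to 0.26. The SERPINB6 interaction was −0.0175 with no mitochondrial limit, −0.16 at 10000 UMIs, −0.0123 without the top cell, −0.0471 with the cells cut at the median and −0.0170 to 0.0622 with 1 plate left out. The SERPINB8 interaction was 0.12 (SE 0.19) in the main fit, −0.44 at 10000 UMIs and −0.0309 to 0.253 with 1 plate left out. The SERPINB5 interaction was 0.36 with an adjusted p of 0.027 by edgeR with no mitochondrial limit. SERPINB1, SERPINB5 and SERPINB6 stayed called between EMT groups in all 15 alternatives. Leaving out the top cell of each member, and 1 plate for the interaction, were chosen after seeing the data. The counts of widely detected members, of members following the score and of co-expressed pairs did not change in the alternatives run. SERPINB3, SERPINB4 and SERPINB7 were too low to test in some of the fits, and SERPINB8 lost its call between EMT groups at 10000 UMIs.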
